A study of Mus musculus with 18 samples.

Results

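Within each TgCPEB4∆4 mouse, messenger RNA that left a poly(U) column with the long poly(A) tails was set against the total RNA of the same mouse. This comparison rests on 6 of the 18 arrays of the study, a long-tail array and a total RNA array from each of 3 mice. The members are every array that the labels give to that genotype and to either preparation, and for each probe set the long-tail log2 value minus the total RNA log2 value was taken within the mouse. The groups used were the long-tail fraction of TgCPEB4∆4 mice (3 arrays), their short-tail fraction (3 arrays) and their total RNA (3 arrays), and the long-tail fraction and total RNA of CTRL mice (3 arrays each). All mice were 6 weeks old, and in every case cortex and striatum had been dissected together. TgCPEB4∆4 is a transgene for a form of CPEB4 without the exon that its name gives. The sources used here do not give the promoter that drives it, its founder line or any allele that the CTRL mice carry too. Per the labels' protocols, 25% formamide released the short-tail fraction and 90% formamide the long-tail fraction.

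The poly(A) tail is added to most messenger RNAs in the nucleus and is shortened and in places lengthened again in the cytoplasm. CPEB proteins recognise short elements near the 3′ ends of messenger RNAs and recruit enzymes that lengthen or shorten the tail, a form of control known from oocytes and from synapses. Messenger RNAs of replication-dependent histones are the best known exception, because they end in a stem-loop and carry no tail. Transcripts of very active housekeeping genes, such as those of ribosomal proteins, are known in animal cells to have short and uniform tails.

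Each value is relative to the other transcripts of its preparation and is no amount, since the same mass of RNA was amplified from each and the array medians lay close together. If nearly all transcripts were scarcer in a fraction, these values would not show it. The median log2 value lay between 6.48 and 6.54 on the long-tail arrays and between 6.49 and 6.50 on the total RNA arrays. The SD over an array was 1.86, 1.83 and 1.91 on the long-tail arrays of mice 1, 2 and 3. On their total RNA arrays it was 1.93, 1.93 and 1.90. The spread was thus not equal, and counts after quantile normalization again are given below. The brightest nonspecific control probe set read 5.83, 6.29 and 5.64 on the long-tail arrays of mice 1, 2 and 3, against 7.51, 7.52 and 7.24 on the total RNA arrays. It was lower on every long-tail array, so that a low value counts as measured more often there, and its part in the results was not tested. A gene is called measured on an array where it exceeded this control there. The 3 control probe sets for 18S ribosomal RNA, which has no poly(A) tail, read only 0.10, 0.22 and 0.44 log2 units lower in the long-tail fraction, at levels near the top of the scale. The tissue label was checked on the total RNA arrays. The cortical markers Slc17a7, Tbr1 and Nrgn averaged between 9.54 and 12.1 and were above the control on every array, as were the striatal Drd1, Ppp1r1b and Rgs9, whereas Drd2 averaged 6.79 and was above it on none.

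In the long-tail fraction of TgCPEB4∆4 mice more genes were depleted than enriched relative to total RNA, and the depleted genes were led by histones. Of 27022 probe sets, 3115 passed in limma (adjusted p under 0.05), which is 11.5%, with 830 higher (3.07%) and 2285 lower (8.46%) in the long-tail fraction. Counted as genes, with the brightest probe set of each, 1288 of 11974 passed (10.8%), 254 of them higher (2.12%) and 1034 lower (8.64%). The median difference over all genes was -0.01. The p-values and the SEs given below rest on the spread between these 3 mice after limma moderation. It draws each probe set's spread toward that of all probe sets tested (prior degrees of freedom 10.5). An SE can therefore be larger or smaller than the 3 values of a gene alone would give.

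**Figure D1:**
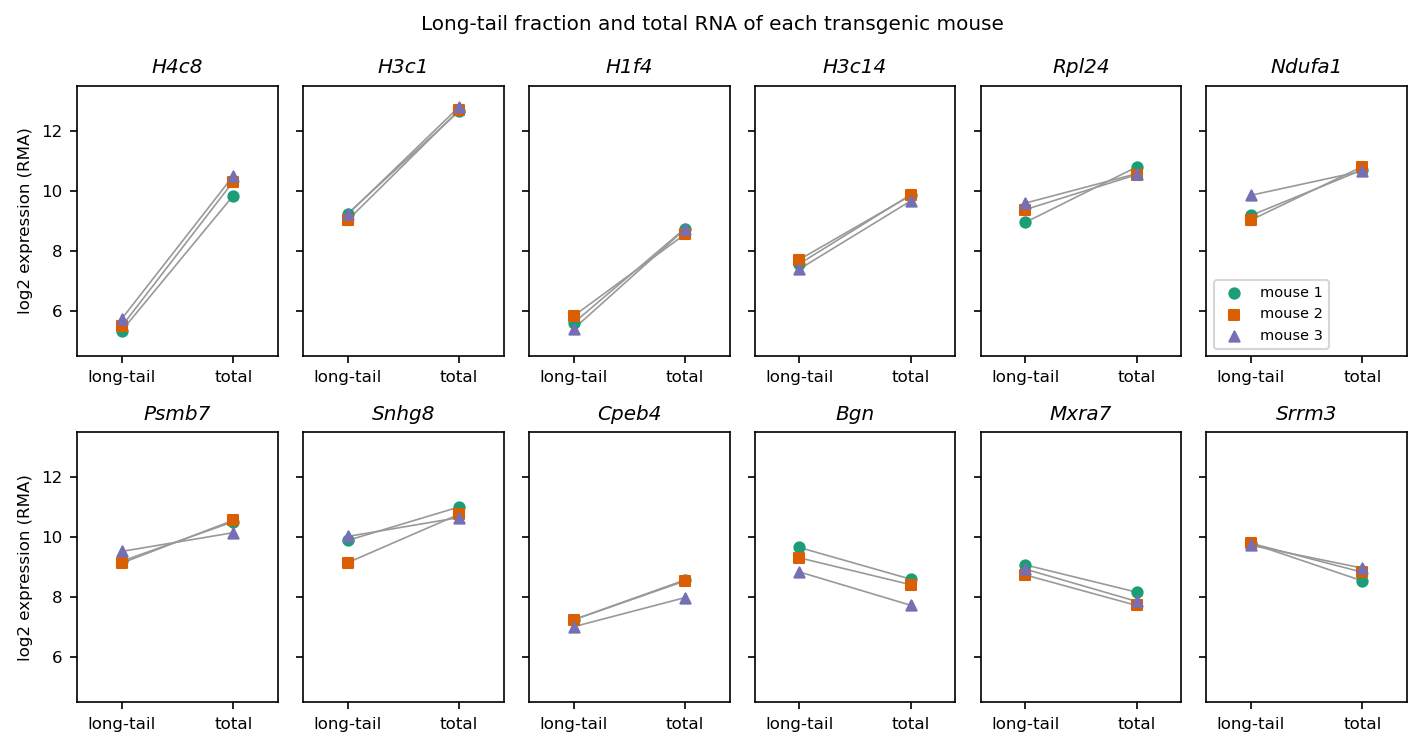
Log2 expression of 12 genes (vertical axis) in the long-tail fraction (left of each panel) and in total RNA (right), with a line joining the 2 arrays of a mouse. Histone, ribosomal, respiratory, proteasome, Snhg8 and Cpeb4 transcripts lay lower in the long-tail fraction of all 3 mice, and Bgn, Mxra7 and Srrm3 higher.

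Histone transcripts showed the 5 steepest falls among the 11974 genes tested. H4c8, an H4 histone gene, read 5.34, 5.49 and 5.74 in the long-tail fraction of mice 1, 2 and 3, against 9.85, 10.31 and 10.50 in their total RNA. The difference was -4.70 ± 0.14 (SE, n = 3 mice; adjusted p = 2.8e-09, limma), a signal 25.9-fold lower, but only 1 of the 3 long-tail arrays was above the nonspecific control, so the size is not exact. H3c1, an H3 histone gene that was measured on all 6 arrays, read 9.24, 9.03 and 9.22 in the long-tail fraction and 12.66, 12.70 and 12.80 in total RNA. The preparations lay far apart for both genes, and the mice differed little within each.

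H3c1 thus differed by -3.56 ± 0.14 (SE; adjusted p = 3.5e-08, limma), a level 11.8-fold lower in the long-tail fraction. H1f4, which codes for a linker histone, read 5.60, 5.83 and 5.40 in the long-tail fraction, against 8.75, 8.56 and 8.73 in total RNA. None of its long-tail arrays exceeded the nonspecific control, so it was at least 6.75-fold lower (adjusted p = 5.0e-07, limma). The bound sets the mean of the total RNA arrays against the mean over the long-tail arrays of that control's level, or of the gene's own where higher.

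H2bc22, an H2B gene, read 7.54, 7.46 and 7.94 in the long-tail fraction, against 10.59, 10.27 and 10.25 in total RNA, a difference of -2.72 ± 0.16 (adjusted p = 3.1e-06, limma). A second H2bc22 probe set differed by only -0.55 and did not pass (adjusted p = 0.054). H3c14, another H3 gene, read 7.57, 7.71 and 7.40 in the long-tail fraction and 9.88, 9.85 and 9.67 in total RNA, a difference of -2.24 ± 0.13 (adjusted p = 3.3e-06, limma). Near-identical copies of histone genes share probes, so that each of these values may hold several genes.

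Not every replication-dependent histone gene fell. Of the 17 on the array 12 passed the filter on dim probe sets, and 8 of those 12 were lower in the long-tail fraction, with none higher. The share was 66.7%, against 8.64% of all genes. The filter took the mean over all arrays, total RNA included, with a cutoff of 5.95. H4c8 and H1f4 averaged 5.53 and 5.61 in the long-tail fraction, under that cutoff, and 10.22 and 8.68 in total RNA. Their total RNA level thus helped to keep them, whereas histone genes that failed the filter could not count as lower. The share therefore holds for the 12 tested only. Besides the 5 named, H2bc4 differed by -1.31, H2bu2 by -1.27 and H3c4 by -0.62, all past the threshold. The remaining 4 did not pass: H1f2 differed by -0.35, H2aw by -0.33, H3c7 by -0.02 and H3c15 by 0.05, and the H3c7 and H3c15 probe sets were above the nonspecific control on no total RNA array. A further H3c4 probe set, also not measured in total RNA, did not pass (adjusted p = 0.99).

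The histone variants that are made throughout the cell cycle and carry ordinary tails served as a contrast. Of 9 such genes 3 were lower (33.3%, against 8.64% of all genes) and none higher. Their median difference was -0.09, whereas the median of the 12 replication-dependent genes was -1.29. H2az1, an H2A.Z gene, read 9.01, 9.04 and 9.64 in the long-tail fraction and 10.22, 10.21 and 10.01 in total RNA, a difference of -0.92 (adjusted p = 0.0060, limma). H3f3a, an H3.3 gene, differed by -0.56 and H2az2 by -0.53, although a second H2az2 probe set differed by 0.07. H3f3b, H2ax, H1f10, H2aj, Macroh2a1 and Macroh2a2 did not pass, with differences from -0.39 to 0.25.

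**Figure D2:**
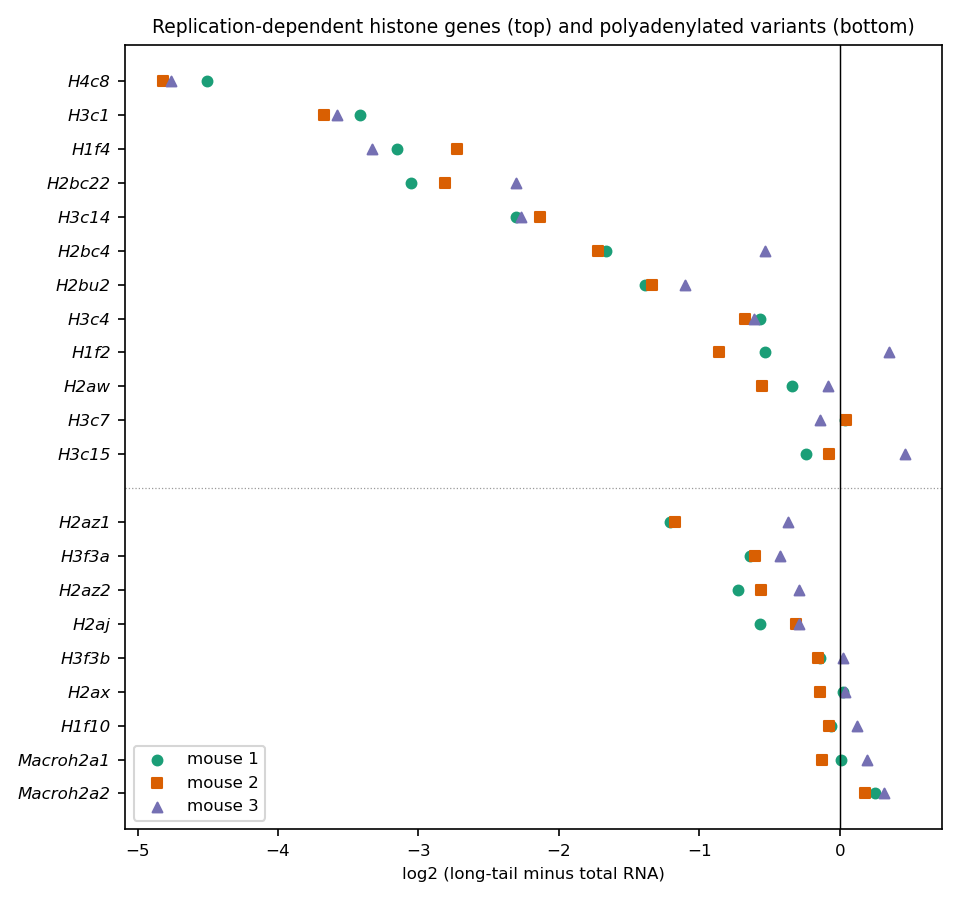
Long-tail minus total RNA log2 difference (horizontal axis) of each histone gene in the 3 TgCPEB4∆4 mice, with replication-dependent genes above the dotted line and polyadenylated variants below it. The first 5 genes from the top lie between -4.82 and -2.14 in every mouse, while no variant lies below -1.21.

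Ribosomal protein transcripts formed the broadest depleted group. Of 68 genes for cytoplasmic ribosomal proteins that were tested, of 70 on the array, 55 were lower in the long-tail fraction and none higher (80.9%, against 8.64% of all genes). In 62 of them all long-tail arrays lay below all total RNA arrays, as was so for 15.1% of all genes. The median of the list was -0.72, against -0.01 for all genes. With the spread shared with CTRL mice only 1 of the 68 passed. Rpl24, of the large subunit, read 8.95, 9.38 and 9.59 in the long-tail fraction of mice 1, 2 and 3 and 10.80, 10.54 and 10.58 in their total RNA. The groups did not overlap, and the difference was -1.33 ± 0.17 (SE; adjusted p = 0.0013, limma). A second Rpl24 probe set differed by only -0.16 and did not pass.

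Rpl12 read 9.27, 8.95 and 9.47 in the long-tail fraction and 10.80, 10.44 and 10.24 in total RNA, a difference of -1.26 (adjusted p = 0.0014, limma). Rpl22l1, a paralog of the large subunit protein Rpl22, differed by -1.55 (adjusted p = 0.0011, limma), with 2 of its 3 long-tail arrays above the nonspecific control. Ribosomal protein genes have many processed pseudogenes, whose transcripts the probes may also read. Over single genes the differences ran from -1.55 to 0.18.

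Genes for mitochondrial respiration and translation also had many members lower. In the oxidative phosphorylation list, the subunits of the respiratory chain and of ATP synthase, 51 of 70 genes were lower and none higher (72.9%, against 8.64% of all genes), with a median of -0.65. Ndufa1, of complex I, read 9.18, 9.03 and 9.86 in the long-tail fraction, against 10.71, 10.81 and 10.66 in total RNA, a difference of -1.37 ± 0.18 (SE; adjusted p = 0.0014, limma). Ndufb4 and Ndufa6, also of complex I, differed by -1.22 and -1.09. Of 73 genes for mitochondrial ribosomal proteins 37 were lower and none higher (50.7%), with a median of -0.46. The smallest p-values were those of Mrpl13 (-1.06), Mrpl30 (-1.06) and Mrps33 (-1.18), and a second Mrpl30 probe set differed by 0.02 and did not pass.

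Proteasome genes followed with 15 of 35 lower (42.9%), none higher and a median of -0.44. Psmb7, of the catalytic core, read 9.21, 9.15 and 9.54 in the long-tail fraction and 10.52, 10.57 and 10.16 in total RNA, a difference of -1.12 ± 0.17 (adjusted p = 0.0022, limma). Psmb1 and Psma5, also of the core, differed by -1.0 and -0.93. Sem1, a small subunit of the regulatory particle, read 7.78, 7.30 and 8.21 in the long-tail fraction, against 9.26, 9.08 and 9.18 in total RNA (-1.41, adjusted p = 0.00094, limma).

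**Figure D3:**
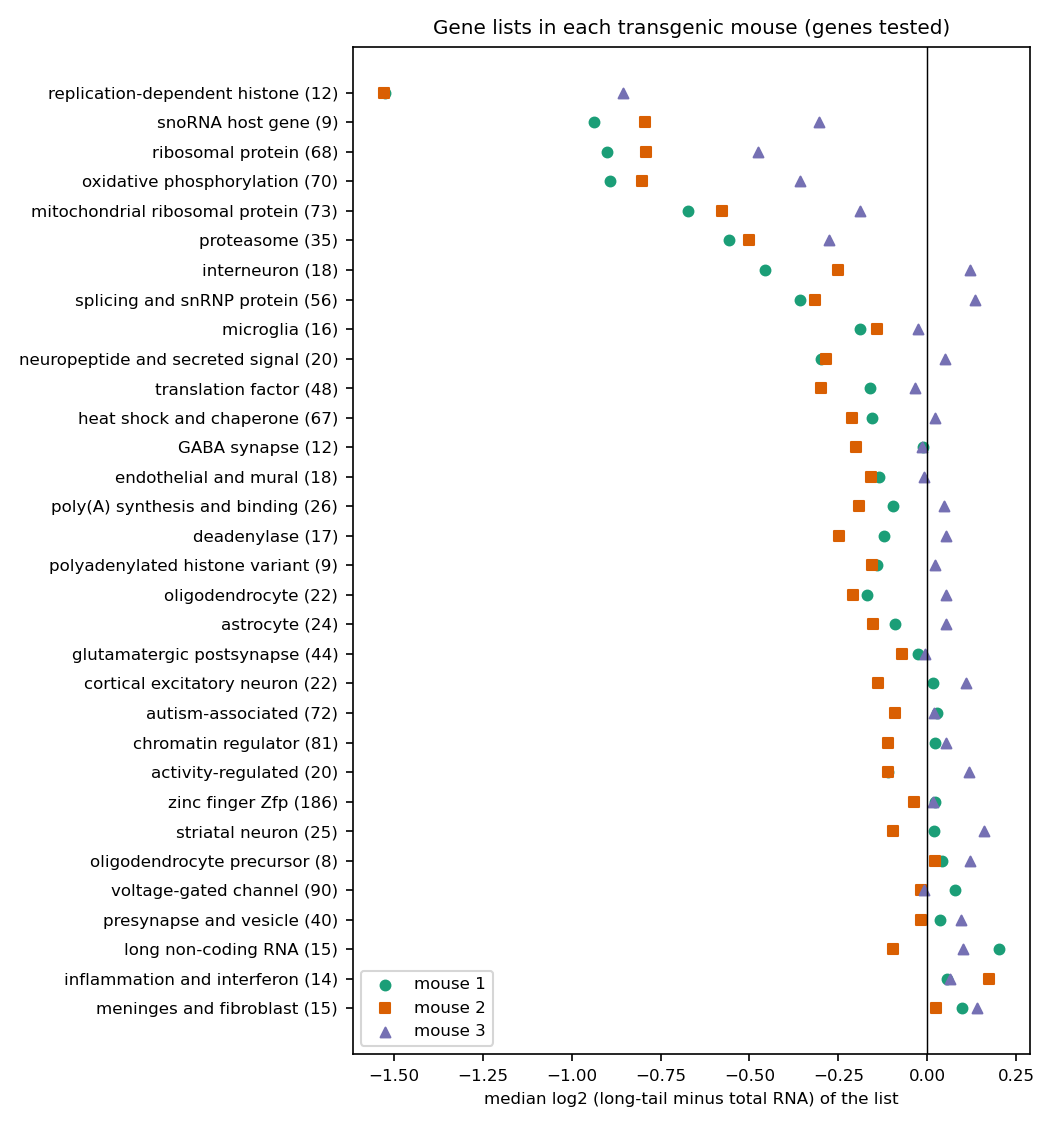
Median long-tail minus total RNA log2 difference (horizontal axis) of each gene list with at least 8 genes tested, in each TgCPEB4∆4 mouse. Replication-dependent histone, snoRNA host, ribosomal, respiratory and proteasome lists lie below 0 in all 3 mice and nearer to 0 in mouse 3, while most neuronal and glial lists lie closer to 0, apart from the interneuron list at -0.46 in mouse 1 and 0.12 in mouse 3.

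Among translation factors 8 of 48 genes were lower and none higher (16.7%, against 8.64% of all genes), with a median of -0.16. Eif1ax, an initiation factor, differed by -1.08, and the eIF3 subunits Eif3i and Eif3m each by -0.74. Among splicing and snRNP proteins 13 of 56 were lower (23.2%) and 1 higher. Lsm3, Snrpd2 and Srsf10 differed by -1.06, -0.93 and -0.72, whereas Snrpd3, a core snRNP protein, was higher by 0.48 (adjusted p = 0.043, limma). Of 67 chaperones and heat shock proteins 7 were lower (10.4%) and 2 higher (2.99%), close to the shares of all genes. Dnajc15 differed by -1.24, Hspa13 by -0.96 and the stress-inducible Hsp90aa1 by -0.78, while Dnajb1 was higher by 0.56. The second higher member, Hspg2 (0.59), is perlecan, an extracellular matrix protein that entered the list by its symbol.

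Host genes of small nucleolar RNAs have spliced RNAs that resemble ribosomal protein transcripts at their 5′ ends. Of 9 such genes 5 were lower (55.6%, against 8.64% of all genes) and none higher, with a median of -0.78. Snhg8 read 9.90, 9.16 and 10.03 in the long-tail fraction, against 11.02, 10.77 and 10.67 in total RNA, a difference of -1.12 (adjusted p = 0.0027, limma). Snhg6 differed by -1.03 and Gas5 by -1.01. Long noncoding RNAs as a list went both ways, with 2 of 15 higher (13.3%, against 2.12% of all genes) and 2 lower (13.3%, against 8.64%). Miat, a nuclear RNA of neurons, read 11.60, 11.24 and 11.48 in the long-tail fraction and 11.03, 10.92 and 10.99 in total RNA (0.46, adjusted p = 0.045, limma), and Sox2ot, not measured in total RNA, differed by 0.64. Tug1 and Pantr1 were lower, by -0.79 and -0.80.

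Among the CPEB proteins themselves, the Cpeb4 transcript was lower in the long-tail fraction. The brighter Cpeb4 probe set read 7.25, 7.25 and 7.02 in the long-tail fraction of mice 1, 2 and 3 and 8.58, 8.55 and 7.99 in their total RNA. The difference was -1.20 ± 0.14 (SE; adjusted p = 0.00099, limma), a level 2.29-fold lower, and the groups did not overlap. With the spread shared with CTRL mice it missed the threshold (adjusted p = 0.076, limma). The second Cpeb4 probe set read 6.90, 6.95 and 7.78 in the long-tail fraction, against 7.89, 7.84 and 7.49 in total RNA. It differed by -0.53 and missed the threshold (adjusted p = 0.13). In mouse 3 this second probe set was the higher one in the long-tail fraction. In CTRL mice the 2 probe sets differed by -1.30 and -1.20. The sources used here do not say whether either probe set reads the transcript of the transgene.

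The paralogs Cpeb1 (-0.07) and Cpeb3 (-0.29, with -0.19 at a second probe set) did not pass. Cpeb2 differed by -0.29 and did not pass, and a second Cpeb2 probe set, like the first not measured in total RNA, differed by -0.54 (adjusted p = 0.037, limma). Of 17 deadenylases, the enzymes that shorten tails, none passed in limma, and Pan3 (-0.32) and Noct (0.08) were the brightest. Of 26 genes for poly(A) synthesis and poly(A) binding only Zc3h14, a poly(A)-binding zinc finger protein, passed (-0.60, adjusted p = 0.036, limma).

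Enriched genes were fewer and their differences smaller, none above 1.08, and all 3 long-tail arrays lay above all 3 total RNA arrays in 10.4% of genes. Bgn, which codes for the matrix proteoglycan biglycan, read 9.67, 9.32 and 8.85 in the long-tail fraction of mice 1, 2 and 3, against 8.61, 8.42 and 7.74 in their total RNA. The difference was 1.02 ± 0.13 (SE; adjusted p = 0.0014, limma), a level 2.03-fold higher, and its other probe set also passed. Mxra7, another matrix-associated gene, read 9.09, 8.75 and 8.95 in the long-tail fraction and 8.18, 7.73 and 7.87 in total RNA, a difference of 1.00 (adjusted p = 0.0014, limma). Each mouse showed the difference in both genes.

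Srrm3, a regulator of neuronal microexon splicing, read 9.81, 9.81 and 9.74 in the long-tail fraction, against 8.55, 8.84 and 8.98 in total RNA. Its difference was 0.99 ± 0.14 (SE; adjusted p = 0.0021, limma), and all 3 of its probe sets passed. The other genes with the largest increases among those measured on all 6 arrays were Hivep3, a zinc finger transcription factor (0.87), Cog7, of the Golgi tethering complex (0.86), Cyb5r3, cytochrome b5 reductase (0.85), and Mospd3 (0.83). Man2a2, a Golgi mannosidase (0.77), Lonrf1 (0.74), Nwd1 (0.74), Prelid3a (0.73) and Svs5 (0.73) completed the 12. For Hivep3 3 probe sets were higher and 1 was lower, and for Cyb5r3 3 of 4 passed.

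The 5 further genes with the largest increases were below the nonspecific control in the total RNA of all mice or, for C920021L13Rik, of all but 1, so their size is not exact. Kcnj16, an inward rectifier potassium channel, was at least 1.57-fold higher, 2610005M20Rik at least 1.21-fold and Ccdc30 at least 1.19-fold. Arxes1 (1.03) and C920021L13Rik (1.08) are given with their fitted differences, as neither allowed a bound.

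Among the 12 largest decreases measured on all 6 arrays, several belonged to no list above. Csmd3, a large neuronal membrane protein with CUB and sushi domains, read 7.64, 7.43 and 6.88 in the long-tail fraction and 8.98, 9.08 and 8.62 in total RNA. The difference was -1.58 ± 0.14 (SE; adjusted p = 0.00022, limma), and 1 of its 2 probe sets passed. Zfp644, a zinc finger protein, differed by -1.43, Arap2, a GTPase-activating protein, by -1.34, and Klhl28 by -1.32. Tbca, a tubulin folding cofactor (-1.5), and Nhp2, of the H/ACA small nucleolar particle (-1.47), completed the 12 with H3c1, H2bc22, H3c14, Sem1, Ndufa1 and Rpl24. The 2 genes that were not measured on all arrays and had the largest decreases besides H4c8, H1f4 and Rpl22l1 were Necab1 (-1.22), which was above the control on no total RNA array, and Iftap (-1.16).

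In the synaptic and channel lists medians ran from -0.13 for the GABA synapse to 0.04 for presynaptic genes, against -0.01 for all genes. Of 40 presynaptic and vesicle genes none passed in limma, and the brightest, Snap25 and Syp, differed by 0.17 and -0.03. Of 44 genes of the glutamatergic postsynapse 6 were lower and none higher (13.6%, against 8.64% of all genes). Homer1, a postsynaptic scaffold, read 9.14, 9.64 and 9.49 in the long-tail fraction, against 9.75, 10.31 and 10.53 in total RNA, a difference of -0.77 (adjusted p = 0.0058, limma), and 3 of its 5 probe sets passed. The scaffold Dlg2 differed by -0.72 and the adhesion protein Nlgn1 by -0.80. For Dlg2 2 of 3 probe sets passed, and 1 differed by 0.08.

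Of 90 voltage-gated and related channels 4 were higher (4.44%, against 2.12% of all genes) and 6 lower (6.67%, against 8.64%). Besides Kcnj16, the calcium channel genes Cacna1h and Cacna1c were higher by 0.62 and 0.57, and the potassium channel genes Kcna4 and Kcnv1 and the sodium channel gene Scn1a were lower, at -0.65, -0.64 and -0.56. In the GABA synapse list 1 of 12 genes passed, the receptor subunit Gabra4 (-0.54), a share of 8.33% lower. Of 20 activity-regulated genes Nr4a2, a nuclear receptor, was higher by 0.57 (5%) and Homer1 lower (5%). Among neuropeptides and secreted signals 3 of 20 were lower (15%, against 8.64% of all genes), Scg5 (-0.71), Npy (-0.53) and Tac1 (-0.71). Of these Tac1 was not lower in every mouse.

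Genes linked to autism in people passed in shares near those of all genes, as 3 of 72 were higher (4.17%, against 2.12%) and 7 lower (9.72%, against 8.64%). Tsc1, a growth inhibitor of the mTOR pathway, read 9.38, 8.39 and 8.18 in the long-tail fraction, against 8.30, 7.91 and 7.56 in total RNA (0.73, adjusted p = 0.0099, limma), and 1 of its 3 probe sets passed. Cacna1c and Zmynd8 (0.52) were the others that were higher. Only 1 of 2 Cacna1c and 1 of 3 Zmynd8 probe sets passed, and a Zmynd8 probe set differed by -0.01. Nf1, a Ras regulator, read 8.07, 8.24 and 7.45 in the long-tail fraction and 8.83, 9.09 and 8.48 in total RNA (-0.88, adjusted p = 0.0026, limma), and Nsd1 and Spast differed by -0.70 and -0.65. The Nf1 groups did not overlap, whereas the Tsc1 groups did. A second Nsd1 probe set differed by -0.07 and did not pass.

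Chromatin regulators had 4 of 81 genes higher (4.94%, against 2.12% of all genes) and 5 lower (6.17%, against 8.64%). Setd1b, a histone methyltransferase, was higher by 0.71, Hdac7 by 0.52 and Mbd6 by 0.50, while Smarca5, Hdac9 and Chd6 were lower, at -0.94, -0.82 and -0.73. Second probe sets of Hdac7, Hdac9 and Chd6 differed by 0.09, -0.04 and -0.02 and did not pass. Of 186 genes named Zfp 5 were higher and 15 lower, both shares close to those of all genes. Zfp24 (-1.15) and Zfp800 (-1.0, not measured in total RNA) followed Zfp644, for which 1 of 2 probe sets passed, and the 3 named for being higher, Zfp395 (0.68), Zfp764 (0.65) and Zfp248 (0.77), were not measured in total RNA.

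Among cell type lists with at least 8 genes tested, microglial and interneuron genes had the largest shares of lower genes. Of 16 microglial genes 5 were lower (31.2%, against 8.64% of all genes) and 1 higher (6.25%, against 2.12%). C1qa, of the complement system, read 9.88, 8.02 and 8.24 in the long-tail fraction of mice 1, 2 and 3 and 10.68, 8.96 and 8.59 in their total RNA, a difference of -0.70 (adjusted p = 0.012, limma). Mouse 1 was highest in both preparations, so the groups overlapped although each mouse's long-tail value was below its total. Tyrobp and C1qb differed by -1.01 and -0.67, and Laptm5, a lysosomal protein, was higher by 0.47. Without mouse 1, 2 or 3 the number of lower microglial genes was 1, 1 and 7, against 378, 367 and 2929 of all 11974 genes. Both preparations of a mouse came from the same tissue, so these differences are no measure of cell number or of RNA per cell.

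Of 18 interneuron genes 4 were lower (22.2%) and 1 higher (5.56%). Pvalb, the calcium buffer of fast-spiking cells, read 8.83, 8.80 and 9.81 in the long-tail fraction and 10.01, 10.02 and 10.20 in total RNA (-0.93, adjusted p = 0.0058, limma). Erbb4 (-0.65) and Npy were also lower, and Lhx6, a transcription factor of the same lineage, was higher by 0.69. Oligodendrocyte genes had 3 of 22 lower (13.6%), Ppp1r14a (-0.99), Ugt8a (-0.81) and Qdpr (-0.66), and Fa2h (0.68, not measured in total RNA) higher. In mouse 3 Qdpr lay higher in the long-tail fraction. Astrocytes had 1 of 24 lower (4.17%, against 8.64% of all genes), Bmpr1b (-0.49).

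In the remaining lists the genes that passed were few in number, although some shares exceeded those of all genes (2.12% higher, 8.64% lower). Of 15 meningeal and fibroblast genes, Bgn and the collagen-binding Fmod (0.65) were higher (13.3%) and Mgp (-0.57) lower (6.67%). The striatal list had Ryr1 (0.56) and Rgs9 (0.50) higher (8%) and Tac1 lower (4%) of 25 genes. Only 1 of 2 probe sets passed for Ryr1 and 1 of 3 for Rgs9. The cortical list had Rorb (-0.53, not measured in total RNA) lower of 22 (4.55%). A second Rorb probe set differed by -0.06 and did not pass. Of 3 blood genes Hba-a2, an alpha-globin, was lower, at -0.59 (33.3%). None passed in limma among 18 endothelial and mural genes, whose brightest were Slc2a1 (0.09) and Vtn (-0.32), 8 of the oligodendrocyte precursor list, with Olig1 (-0.02) and Olig2 (0.33), and 14 inflammation genes, with Ifitm3 (0.10) and Ifit3 (0.10).

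The mice did not contribute equally. Over all probe sets tested the differences of mice 1 and 2 correlated at 0.793, and those of mouse 3 at 0.349 with mouse 1 and 0.362 with mouse 2. These are descriptions over 27022 probe sets that share their arrays. The SD of the differences was 0.430 in mouse 1, 0.408 in mouse 2 and 0.333 in mouse 3. Without mouse 3, 4483 genes passed in place of 1288, 1554 of them higher and 2929 lower, and without mouse 1 or mouse 2 the counts were 436 and 427.

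The medians of the ribosomal, respiratory and histone lists lay nearer to 0 in mouse 3. The ribosomal list had medians of -0.90, -0.79 and -0.48 in mice 1, 2 and 3, with 62 genes lower without mouse 3 in place of 55. Respiratory genes had medians of -0.89, -0.80 and -0.36 and mitochondrial ribosomal genes of -0.67, -0.58 and -0.19. Replication-dependent histones had medians of -1.52, -1.53 and -0.86. Single histone genes varied, as H3c1 differed by -3.42, -3.67 and -3.58, and H3c14 by -2.31, -2.14 and -2.27, but H2bc22 by -3.05, -2.81 and -2.30. Without mouse 1 or mouse 2, fewer genes passed: 30 and 33 of the ribosomal list, 23 and 29 of the respiratory list, 14 and 15 of the mitochondrial ribosomal list, 7 and 9 of the proteasome list and 7 each of the replication-dependent histones. The same counts were 3 and 2 for translation factors, 4 and 5 for splicing proteins, 2 and 4 for chaperones and 1 and 2 for interneuron genes. Mitochondrial ribosomal genes had 52 lower without mouse 3. Proteasome genes had 26 lower without mouse 3 in place of 15, translation factors 21 in place of 8, splicing proteins 30 in place of 13 and chaperones 24 in place of 7. Interneuron genes had medians of -0.46, -0.25 and 0.12, with 9 lower without mouse 3 in place of 4. Of all 11974 genes, 378, 367 and 2929 were lower without mouse 1, 2 or 3, in place of 1034. The list counts moved along with this shift over all genes and were not separated from it.

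**Figure D4:**
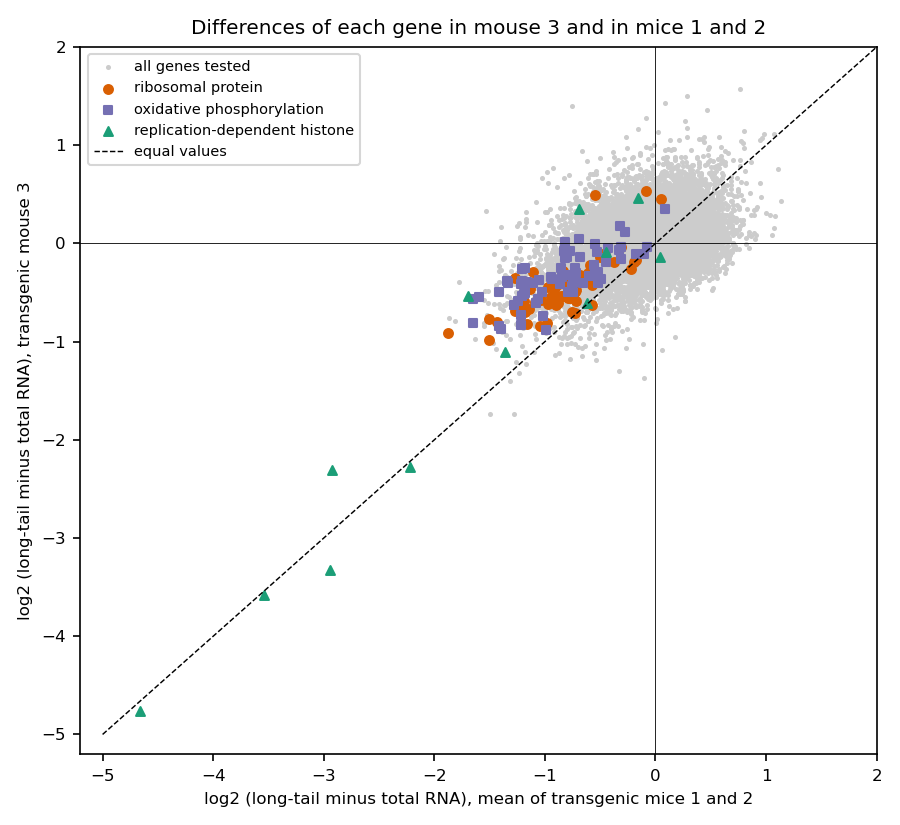
Long-tail minus total RNA log2 difference of each of 11974 genes in TgCPEB4∆4 mouse 3 (vertical axis) and as the mean of mice 1 and 2 (horizontal axis), with the dashed line marking equal values. Ribosomal and respiratory genes lie mostly above the line, with medians nearer to 0 in mouse 3, and among the 5 histone genes with the largest differences H2bc22 lies above it, at -2.30 in mouse 3.

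The short-tail fraction of the same mice was set against the same total RNA arrays. Because the comparisons share the total RNA arrays, values are given side by side only. In the short-tail comparison 3842 genes were higher (32.1%) and 1183 lower (9.88%) in limma. H3c1 differed by -3.56 in the long-tail and -3.25 in the short-tail fraction, H3c14 by -2.24 and -2.11, H2bc22 by -2.72 and -1.34 and H2bc4 by -1.31 and 0.20. H4c8 and H1f4 were at the nonspecific control on most or all long-tail arrays and are not set side by side.

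Some other genes, chosen here after their values were seen, had negative differences in both fractions. Csmd3 differed by -1.58 in the long-tail and -1.61 in the short-tail fraction, Zfp644 by -1.43 and -1.13, Arap2 by -1.34 and -1.25, and Nf1 by -0.88 and -1.19. Nlgn1 differed by -0.80 and -1.92, Homer1 by -0.77 and -0.72, and Chd6 by -0.73 and -0.81. The median of all genes was -0.01 in the long-tail and 0.14 in the short-tail comparison. The larger depleted lists had medians of -0.72 in the long-tail and -0.05 in the short-tail fraction for ribosomal proteins, -0.65 and 0.11 for respiratory genes, -0.46 and 0.21 for mitochondrial ribosomal proteins and -0.44 and 0.17 for the proteasome. The brighter Cpeb4 probe set differed by -1.20 in the long-tail and -0.33 in the short-tail fraction (adjusted p = 0.028 for the short-tail value, limma). The second differed by -0.53 and 0.62, and its short-tail value passed in the opposite direction (adjusted p = 0.0013, limma).

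**Figure D5:**
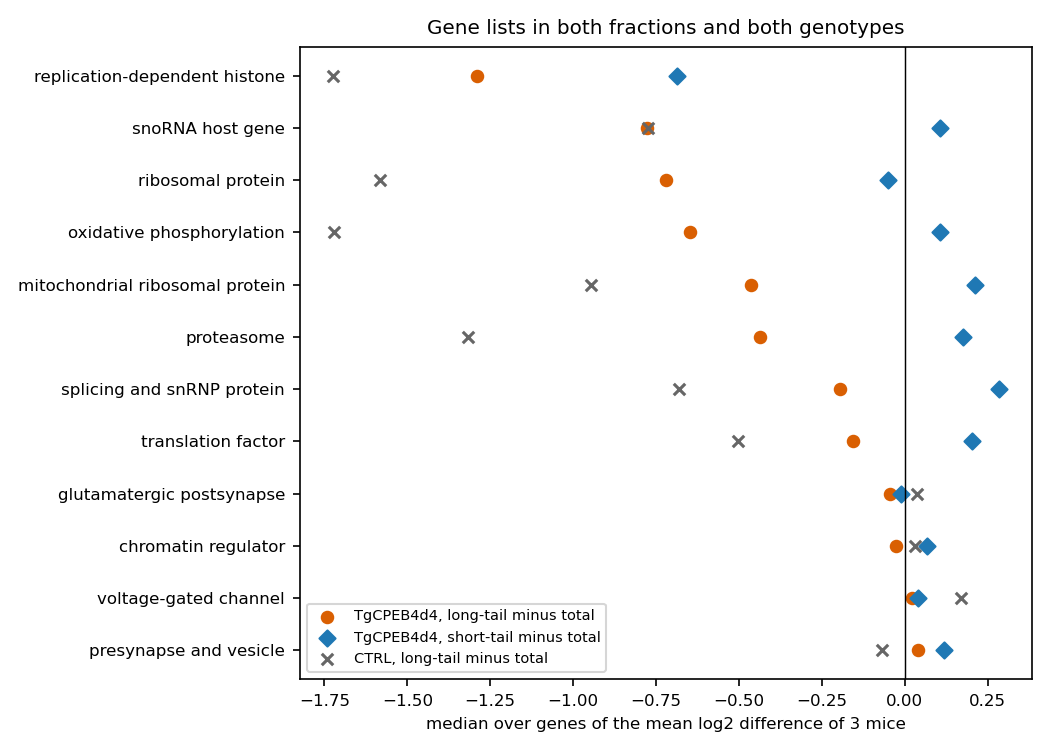
Median over genes of the mean log2 difference of 3 mice (horizontal axis) for 12 gene lists, as long-tail minus total RNA in TgCPEB4∆4 mice, short-tail minus total RNA in TgCPEB4∆4 mice and long-tail minus total RNA in CTRL mice. The 3 comparisons are drawn side by side; the first and second share their total RNA arrays, and the ribosomal list lies at -0.72, -0.05 and -1.58.

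The same lists had medians below 0 in CTRL mice, and no probe set passed for the difference between the genotypes. Medians were -0.72 in TgCPEB4∆4 and -1.58 in CTRL mice for ribosomal proteins, -0.65 and -1.72 for respiratory genes, -0.44 and -1.32 for the proteasome, and -1.29 and -1.72 for replication-dependent histones. CTRL mice 1, 2 and 3 had medians of -1.58, -1.13 and -2.06 for ribosomal proteins and -1.98, -0.60 and -1.35 for the proteasome. In these lists every CTRL mouse lay below every TgCPEB4∆4 mouse. Mitochondrial ribosomal medians overlapped, at -0.65 in CTRL mouse 2 and -0.67 in TgCPEB4∆4 mouse 1. List medians were not tested between genotypes. The SDs of all differences were 0.977, 0.397 and 0.621 in CTRL mice 1, 2 and 3. Those of CTRL mice 1 and 3 exceeded that of every TgCPEB4∆4 mouse. On the long-tail array of CTRL mouse 1 the brightest nonspecific control read 7.30, against 5.53 and 6.11 for CTRL mice 2 and 3. There 15987 probe sets exceeded it, against 26945 and 25533. The part of this array in the spread was not tested. Only 7 genes were higher (0.0585%) and 419 lower (3.5%) in CTRL mice. Of 27022 probe sets 0 passed for the difference between genotypes in limma (lowest adjusted p = 0.69), and 1859 had an unadjusted p under 0.05 (6.88%). Without CTRL mouse 2, 196 passed, and without CTRL mouse 1, 0 passed.

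The 5 genes with the smallest p in each direction for the difference between genotypes are given with both values. Tomm7, of the mitochondrial import pore, differed by -0.93 in TgCPEB4∆4 and -2.29 in CTRL mice, Mrpl42 by -0.97 and -2.26, Uqcrq by -1.06 and -2.78, Atox1, a copper chaperone, by -0.40 and -1.27, and Pttg1, securin, by -0.74 and -2.14. On the other side Cdr1os differed by -0.47 in TgCPEB4∆4 and 0.60 in CTRL mice, Igfbp5 by -0.64 and 0.20, Tnpo1, a nuclear import receptor, by -0.51 and 0.44, Ppp2r1b by -0.24 and 0.47, and St8sia1 by -0.35 and 0.49. None of these 10 differences passed (adjusted p = 0.69 each, limma). Cdr1os, Igfbp5, Ppp2r1b and St8sia1 were not measured on every total RNA array. Other probe sets of Tomm7, Uqcrq and Pttg1 differed by up to 0.30, 0.07 and 0.18 in TgCPEB4∆4 mice, the opposite direction.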

How the data were processed

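RNA of cortex and striatum was measured on 18 single-colour arrays. The authors deposited a table on a log2 scale with 1 value per probe set and array, which per the submitters' processing notes came from RMA. The sources used here do not give its version or whether all arrays were normalized in 1 run. Before hybridisation, 5 ng of each RNA went (labels' protocols) through 21 cycles of amplification, and 8 µg of the product were labelled, which can stretch or compress differences. Arrays carry no read depth, so precision rests on the number of mice.

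The series text names a Mouse PrimeView array, whereas the probe set names and their annotation are of a perfect-match design, and this annotation was used. Of 45141 probe sets 104 controls were left out. Of the other 45037, 28898 had 1 gene, 551 several and 15588 none. Symbols were checked against RefSeq (GRCm38.p6), which matched 28689 and changed 0. Probe sets whose mean over the 18 arrays exceeded the 40th percentile, 5.95, were kept, 27022 in all, 19143 of them with 1 gene. Each of 11974 genes was represented by its brightest probe set. Probe sets with several genes or none were tested but not named.

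Arrays were grouped by the genotype and fraction of their labels and joined by the mouse number, because the fractions of a number come from 1 mouse. The deviations of a mouse's long-tail and total RNA arrays from their group means correlated at 0.642, 0.275 and 0.234 in mice 1, 2 and 3. Arrays of different mice were not compared in this way, so these values do not test the pairing. Mean differences were tested against 0 with limma 3.58.1 in R 4.3.3 (lmFit, eBayes, two-sided, Benjamini-Hochberg over all probe sets tested, adjusted p under 0.05), after a check on simulated data. The simulated mice varied independently and alike, with spreads from limma's own fit. The check therefore does not cover a mouse that differs from the others, as mouse 3 did. The genotype difference used all 6 mice. Lists are described by counts and medians only. Genes named were the 12 largest differences each way among those passing, with the same sign in all mice and above the nonspecific control on all 6 arrays, the 5 largest each way otherwise, the 3 smallest p per list and direction (the 2 brightest where none passed), the CPEB genes, and the 5 smallest p each way between genotypes. The remaining histone genes and 2 further probe sets were added to give those lists in full. The members and lists were chosen with earlier results of these data known. Alternatives were other filters, normalizations, variance priors, pairing, spread and mice.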

Additional observations from a re-analysis of the deposited data

How the results depend on the processing

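The direction of all 121 named results that passed held under every alternative run, but this was largely fixed in advance. Filters, pairing, spread and variance prior leave a difference unchanged. The largest differences were also picked for the same sign in all mice, so leaving out a mouse could not reverse them. Of the 121, 17 kept their call in every planned run, among them H4c8, H3c1, H1f4, H2bc22, H3c14, Csmd3, Rpl24 and Mxra7. Counts moved more. With the probe sets unfiltered, 627 genes passed (100 higher, 527 lower) and 1585 probe sets (362 and 1223), with more tests to adjust for. Without the pairing of the fractions (no replicate block), 322 genes passed (27 and 295) and 780 probe sets (110 and 670). With the spread shared with CTRL mice, 32 genes passed (5 and 27) and 97 probe sets (14 and 83), and at most 1 gene each of the ribosomal, respiratory, mitochondrial ribosomal and proteasome lists was then lower, against 6 replication-dependent histones. With only _at probe sets, chosen after the data were seen, 7 of 10 ribosomal and 24 of 30 respiratory genes were lower. Quantile normalization again left 672 genes lower and moved the split to 329 higher of 1001 genes and 904 higher of 2440 probe sets. Restricting the test, after the data were seen, to probe sets above the nonspecific control left 488 probe sets higher.

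Leaving out 1 mouse gave 427 to 4483 genes (58 to 1554 higher, 367 to 2929 lower) and 1088 to 10361 probe sets (211 to 3954 higher, 867 to 6407 lower), the largest without mouse 3. It gave 0 to 196 probe sets for the genotype difference, the 196 without CTRL mouse 2. Only genes that had not passed reversed: without single mice Noct ran from -0.049 to 0.17, Slc2a1 from -0.0064 to 0.18, Ifitm3 from -0.035 to 0.21, Ifit3 from -0.16 to 0.40, Cpeb1 from -0.16 to 0.077 and Olig1 from -0.24 to 0.12, and Olig1 was 0.10 after quantile normalization. Among list medians, quantile normalization gave 0.041 for the glutamatergic postsynapse, 0.084 for chromatin regulators, 0.044 for Zfp genes, 0.040 for autism-associated genes, 0.20 for meninges and 0.10 for oligodendrocyte precursors. Without single mice the postsynaptic median ran from -0.068 to 0.0062, the activity-regulated from -0.13 to 0.055 and the inflammation one from 0.012 to 0.11. The cause of these changes was not tested.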

Other observations

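Probe sets without a gene entry were higher in the long-tail fraction more often than those with 1 gene. Of 7468 without an entry 5.09% were higher and 7.08% lower, and of 19143 with 1 gene 2.31% were higher and 9% lower. Their transcripts are not named in the annotation used here.

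The share of depleted probe sets differed with the level in total RNA, which is itself a part of the difference. It was 1.59% in the dimmest of 5 equal bins of probe sets and 15.6% in the brightest, while the share of enriched ones was 3.22% and 2.07%. The median difference was 0.10 in the dimmest bin and -0.11 in the brightest. Depleted lists differed in level: the median total RNA level was 11.04 for ribosomal proteins, 10.91 for respiratory genes and 8.99 for mitochondrial ribosomal proteins. Presynaptic genes, of which none passed in limma, had a median level of 10.04.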
